A study of Mus musculus with 12 samples.

Results

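Transcripts of 9 MAP kinases and MAP kinase kinases were followed in sorted mouse microglia: Mapk3 (ERK1), Mapk8 (JNK1), Mapk9 (JNK2), Mapk14 (p38 alpha), and the kinases that activate such enzymes, Map2k1 (MEK1), Map2k3 (MKK3), Map2k4 (MKK4), Map2k6 (MKK6) and Map2k7 (MKK7). They were chosen by symbol, with earlier results of these data known, and their 9 rows are part of a table of 24328 gene symbols. Their counts and medians, set beside those of all genes below, are therefore a description only. All animals were wild-type Balb/c mice, and each of the 3 groups held 4 mice with 1 library each. Allogeneic mice were lethally irradiated, were given 5000000 bone marrow cells and 300000 T cells of allogeneic origin, and were examined at day 14, when graft-versus-host disease is at its peak. Syngeneic mice had the same irradiation, cell doses and day, but a syngeneic graft, and control mice were not transplanted. Microglia, the resident macrophages of the brain, were sorted by flow cytometry from perfused animals. The sources used here do not give the sorting gate, the donor strain or the age of the animals. Syngeneic and control mice differ in irradiation, bone marrow and T cells at once, so the parts of this treatment cannot be told apart.

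In a MAP kinase cascade, a MAP3 kinase phosphorylates a MAP kinase kinase, which in turn phosphorylates a MAP kinase on a threonine and a tyrosine of its activation loop. MEK1 acts on ERK, MKK4 and MKK7 act on JNK, and MKK3 and MKK6 act on p38, while MKK4 can also act on p38. In microglia and other macrophages the p38 and JNK arms lie downstream of Toll-like and cytokine receptors and are known for raising inflammatory gene expression, and the ERK arm is known for relaying growth factor signals. The activity of these enzymes is set by phosphorylation, which RNA counts do not measure.

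The activation loop is the site where the upper tier of the cascade meets the lower one, so the coding sequence from its phosphorylated threonine onward is shown for the 4 MAP kinases. Capitals mark the threonine codon, the middle codon that differs between the ERK, JNK and p38 arms, and the tyrosine codon. The sequences were read from the longest transcript of each gene in GENCODE M21 on GRCm38, 5′ to 3′.
Mapk3: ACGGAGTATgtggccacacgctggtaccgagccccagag
Mapk8: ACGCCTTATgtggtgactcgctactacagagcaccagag
Mapk9: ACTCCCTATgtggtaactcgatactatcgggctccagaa
Mapk14: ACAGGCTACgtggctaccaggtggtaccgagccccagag
Of these 39 bases, Mapk8 and Mapk9 shared 30, Mapk3 and Mapk14 shared 31, and the other pairs shared 24 to 29. Across the whole of the longest transcripts, the longest exact run that any pair of the 9 genes shared was 26 bases, between Mapk3 and Mapk14. It was 23 bases between Mapk8 and Mapk9 and also between Map2k3 and Map2k6. Map2k7 alone had exons that overlap those of another annotated gene, the same-strand Gm49320, over 1349 of its 3829 exon bases; Gm49320 has no row in the count table.

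Library totals were 35559202 to 42641198 reads in allogeneic, 36422729 to 46126118 in syngeneic and 32652208 to 45439607 in control mice, and every member had at least 104 reads in every library. Levels below are reads per 1000000 reads (CPM) after scaling by trimmed mean of M-values (TMM) factors, and ± is the SD over 4 mice. Microglia markers (10 of 10 in the table) summed to 30604 to 32030 CPM in allogeneic, 41072 to 43143 in syngeneic and 43901 to 49978 in control libraries, and none was at 0. Not all of these markers fell: 4 of the 10 were higher and 6 lower in allogeneic against control mice, 6 higher and 4 lower in syngeneic against control mice, and 1 higher and 6 lower in allogeneic against syngeneic mice. Among those that were lower, Csf1r averaged 2879 CPM in allogeneic, 3525 in syngeneic and 11491 in control mice. Monocyte markers (8 of 9 in the table) summed to 289 to 460 CPM in allogeneic, 38.5 to 73.8 in syngeneic and 18.5 to 19.99 in control libraries, and Vcan was at 0 in all syngeneic libraries. Ms4a4c (229 CPM on average) and Plac8 (77.9 CPM) made up most of the allogeneic sum, whereas Ccr2 averaged 3.997 CPM in allogeneic, 8.01 in syngeneic and 9.49 in control mice and was lower in allogeneic against control mice (edgeR adjusted p = 0.0112). Choroid plexus markers (10 of 10) summed to 420 to 793 CPM in allogeneic, 1441 to 2519 in syngeneic and 21.9 to 147 in control libraries, with Aqp1 at 0 in all controls. Markers of border-associated macrophages (7 of 7) summed to 44.3 to 58.8 CPM in allogeneic, 28.2 to 36.2 in syngeneic and 3.55 to 7.14 in control libraries, with Lyve1 at 0 in all allogeneic and all control libraries. Between allogeneic and syngeneic mice, 1 of the 6 tested genes of this list was higher and 0 were lower, with a median log2 fold change of 0.097. T cell markers (8 of 9) stayed at or below 4.24 CPM in sum in every library, and Cd3e was at 0 in all syngeneic and all control libraries. These sums move with the groups compared below, and their part in the results was not tested. In bulk RNA of this kind, fewer cells of a type and less RNA per cell cannot be told apart.

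Between allogeneic and syngeneic mice, 3 of the 9 genes were lower and none was higher. The 3 were Mapk3, Mapk8 and Mapk14, and the activator Map2k3 was lower in every allogeneic than in every syngeneic mouse without passing the test. With each library left out in turn, only 0 to 2 of the 9 genes were called lower. A gene was called at an adjusted p under 0.05 in edgeR's quasi-likelihood test with Benjamini-Hochberg adjustment over all 12695 genes tested, which called 6.38% of genes lower and 10.1% higher. Of the 9 genes, 0 were higher at an unadjusted p under 0.05 in edgeR, and 0 were called higher by DESeq2 or limma-voom. The median log2 fold change of the 9 genes was -0.31, and that of all genes tested was -0.015. Groups did not overlap, with allogeneic mice lower, for 3 of the 9 genes (Mapk3, Mapk8 and Map2k3), where 8.10% of all genes tested had this pattern.

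Between syngeneic and control mice, 1 of the 9 genes was higher (Mapk9) and 3 were lower (Mapk14, Map2k3 and Map2k7). Over all genes tested, 26.4% were called higher and 25.6% lower. The median log2 fold change of the 9 genes was -0.24, and that of all genes was -0.028. The groups of these 4 genes did not overlap, a pattern that 24.6% of all genes had with syngeneic mice higher and 25.5% with syngeneic mice lower. Between allogeneic and control mice, 1 gene was higher (Mapk9) and 5 were lower (Mapk3, Mapk8, Mapk14, Map2k3 and Map2k7), beside 28.2% higher and 29.1% lower of all genes tested. The median was -0.77 for the 9 genes and -0.069 for all genes. For Mapk9 on the higher side, and for Mapk8, Mapk14, Map2k3 and Map2k7 on the lower side, the groups did not overlap; 26.2% of all genes had such a pattern higher and 27.7% lower. Scaling by library totals alone changed the balance of calls over all genes: 844 higher and 2108 lower (against 1288 and 810 with TMM) for allogeneic against syngeneic, 2723 and 3968 (against 3357 and 3253) for syngeneic against control, and 2453 and 5259 (against 3576 and 3697) for allogeneic against control mice. The 3 comparisons share libraries, so their values are given side by side and are not independent of each other.

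**Figure D1:**
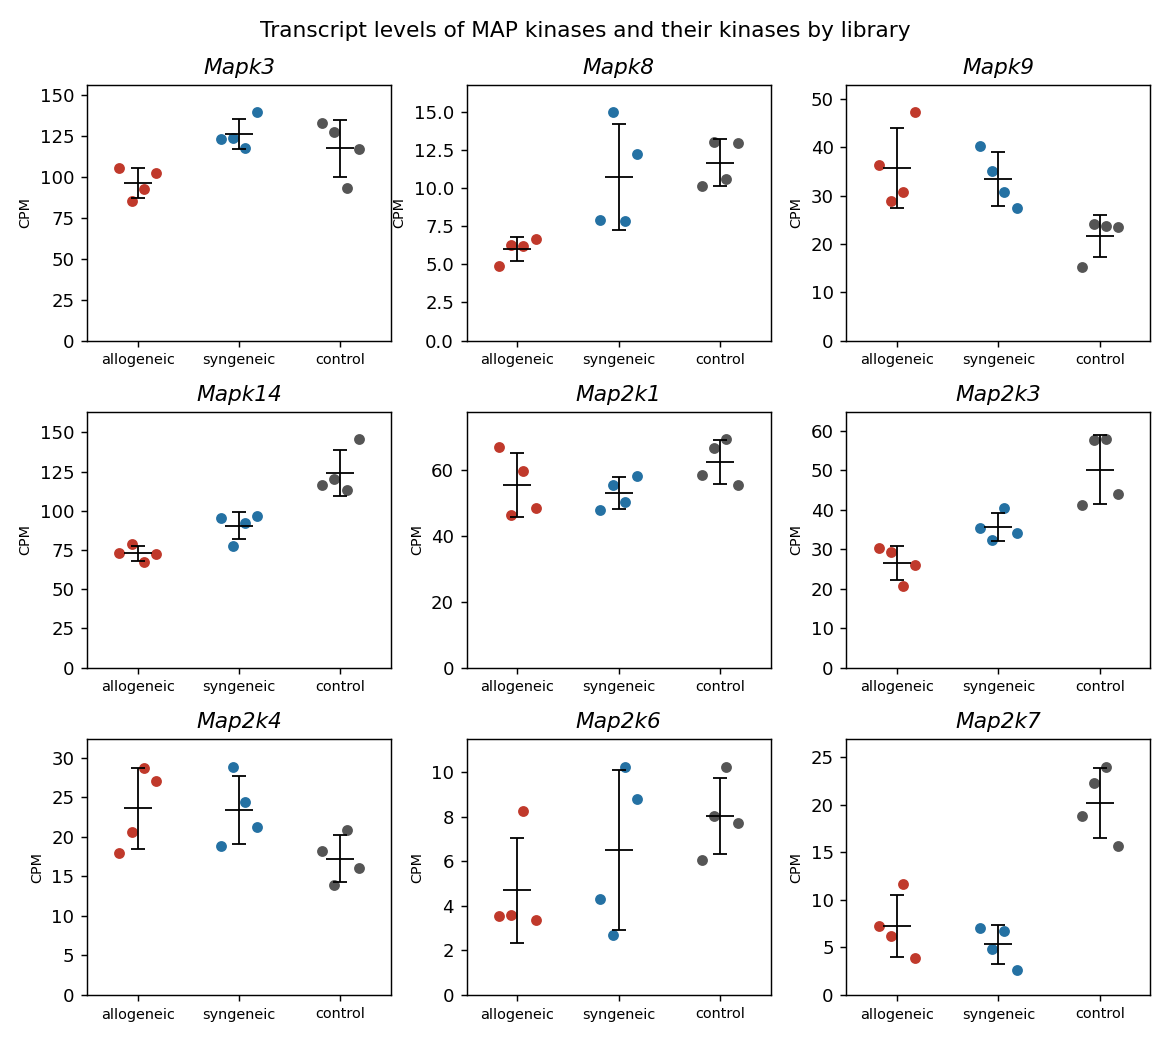
Level of each of the 9 genes (CPM, linear axis from 0) in every library, with the mean and SD of the 4 mice of each group as bars. Allogeneic mice lie below syngeneic mice without overlap for Mapk3, Mapk8 and Map2k3, and both transplanted groups lie below control mice for Map2k7 and above them for Mapk9.

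In the ERK arm, Map2k1 encodes MEK1, which phosphorylates ERK1 and its close relative. Its level was 66.9, 46.4, 59.7 and 48.3 CPM in allogeneic, 47.7, 55.5, 50.4 and 58.2 CPM in syngeneic and 58.4, 66.7, 69.2 and 55.3 CPM in control mice. The 3 groups overlapped, and none of the comparisons was called. The log2 difference was 0.06 with a 95% interval of -0.21 to 0.34 for allogeneic against syngeneic, and -0.24 with an interval of -0.51 to 0.036 for syngeneic against control. For allogeneic against control it was -0.17, with an interval of -0.45 to 0.099. Scaling by library totals alone called Map2k1 lower against control mice in allogeneic (-0.55, edgeR adjusted p = 0.00163) and syngeneic mice (-0.40, 0.0151).

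Mapk3 encodes ERK1, the last kinase of this arm. It had 106, 85.3, 92.7 and 103 CPM in allogeneic, 124, 124, 118 and 140 CPM in syngeneic and 133, 127, 93.5 and 117 CPM in control mice. Every allogeneic mouse was below every syngeneic mouse, while the control mice, with 1 low value, overlapped both. The log2 fold change was -0.39 ± 0.11 (SE, edgeR adjusted p = 0.0188) for allogeneic against syngeneic and -0.29 ± 0.11 (edgeR adjusted p = 0.0322) for allogeneic against control. For syngeneic against control it was 0.10, with a 95% interval of -0.13 to 0.33, and was not called. The call against syngeneic mice was lost without syngeneic mouse 4 (adjusted p = 0.0586), allogeneic mouse 2 (0.0665) or allogeneic mouse 3 (0.0522). The call against control mice was lost without control mouse 1 (adjusted p = 0.106) or 2 (0.0776) and without allogeneic mouse 2 (0.103) or 3 (0.0708), and an offset for the GC content and length of transcripts ended it, with a log2 fold change of 0.042 (adjusted p = 0.776). It was also lost with relative log expression (RLE) size factors (0.0621), in DESeq2 (0.0595) and in a fit of only the 2 groups (0.0628). The same offset gave a call for Mapk3 in syngeneic against control mice, at 0.51 (adjusted p = 0.00133).

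In the JNK arm, Map2k4 encodes MKK4, which acts on JNK and can act on p38. It ranged over 17.9 to 28.7 CPM in allogeneic, 18.9 to 28.9 CPM in syngeneic and 13.9 to 20.9 CPM in control mice. All groups overlapped. The log2 difference was 0.014 with a 95% interval of -0.40 to 0.42 for allogeneic against syngeneic. Against control mice it was 0.45 ± 0.20 in allogeneic mice (edgeR adjusted p = 0.0570) and 0.44 ± 0.20 in syngeneic mice (0.0697), so neither was called. Without control mouse 3 the 2 adjusted p-values were 0.0368 and 0.0431, and allogeneic mice against control mice also passed without allogeneic mouse 1 (0.0249) and syngeneic mice without syngeneic mouse 1 (0.0438). DESeq2 called both (0.0330 in allogeneic and 0.0494 in syngeneic mice), and RLE size factors called allogeneic mice (0.0411).

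Map2k7 encodes MKK7, which is specific for JNK. Its level was 7.19, 6.19, 11.6 and 3.86 CPM in allogeneic, 7.04, 4.80, 6.76 and 2.63 CPM in syngeneic and 18.8, 22.3, 24.0 and 15.7 CPM in control mice. The highest transplanted mouse was below the lowest control mouse, and the transplanted groups overlapped each other. The log2 fold change was -1.49 ± 0.33 in allogeneic against control mice (edgeR adjusted p = 0.000942) and -1.93 ± 0.34 in syngeneic against control mice (0.000107). Without the GC and length offset these were the largest changes among the 9 genes by size in the comparisons with control mice. Both calls held with each library left out in turn and with that offset, at -0.88 (adjusted p = 0.0353) and -1.33 (0.00356). With the offset, Mapk8 at -1.20 and Map2k6 at -1.03 moved further than Map2k7 in allogeneic against control mice. Allogeneic against syngeneic mice differed by 0.44, with a 95% interval of -0.26 to 1.14, and were not called. Because of the overlap with Gm49320, how the authors' counting treated the shared exons of Map2k7 is not known.

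The 2 JNK genes moved apart. Mapk8, which encodes JNK1, had 4.85, 6.25, 6.21 and 6.68 CPM in allogeneic, 7.91, 15.0, 7.83 and 12.2 CPM in syngeneic and 10.1, 13.01, 10.6 and 12.9 CPM in control mice. All allogeneic mice lay below every mouse of the other groups; within the syngeneic group a pair of mice was near 8 CPM and the other pair lay within or above the control range. The log2 fold change was -0.84 ± 0.26 against syngeneic mice (edgeR adjusted p = 0.0306) and -0.96 ± 0.26 against control mice (0.00387). Syngeneic and control mice differed by -0.12, with a 95% interval of -0.65 to 0.41. The call against control mice held with each library left out, whereas that against syngeneic mice was lost without syngeneic mouse 2 (0.130) or 4 (0.0758) and without allogeneic mouse 1 (0.0825), 2 (0.0534) or 3 (0.0579). With all libraries kept, the call against syngeneic mice held in 8 of 10 alternative settings. It was lost in limma-voom (0.0635) and with a block for replicate number together with the GC and length offset.

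Mapk9 encodes JNK2. Its level was 36.3, 28.8, 30.8 and 47.2 CPM in allogeneic, 40.3, 35.2, 30.7 and 27.4 CPM in syngeneic and 15.1, 24.2, 23.8 and 23.5 CPM in control mice. Every transplanted mouse was above every control mouse, and the transplanted groups overlapped. The log2 fold change was 0.72 ± 0.19 in allogeneic against control mice (edgeR adjusted p = 0.00322) and 0.63 ± 0.19 in syngeneic against control mice (0.00975), and without the low control mouse 1 it was 0.58 (0.0131) and 0.49 (0.0372). Scaling by library totals alone gave 0.35 (adjusted p = 0.133) and 0.45 (0.0632), so both calls depended on the scaling. Allogeneic against syngeneic mice differed by 0.097, with a 95% interval of -0.30 to 0.49.

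In the p38 arm, Map2k3 encodes MKK3. It had 30.3, 29.2, 20.8 and 26.0 CPM in allogeneic, 35.5, 32.3, 40.5 and 34.0 CPM in syngeneic and 41.3, 57.6, 57.8 and 43.9 CPM in control mice. The groups stood in 3 steps without overlap, with allogeneic mice lowest and control mice highest. The log2 fold change was -0.42 ± 0.15 for allogeneic against syngeneic (edgeR adjusted p = 0.0711, not called), -0.50 ± 0.15 for syngeneic against control (0.0109) and -0.92 ± 0.15 for allogeneic against control (5.50e-05). With the GC and length offset, allogeneic against syngeneic was called at -0.50 (adjusted p = 0.0375), syngeneic against control was not, at -0.098 (0.638), and allogeneic against control was, at -0.60 (0.00376). Scaling by library totals alone also gave a call for allogeneic against syngeneic, at -0.62 (0.00896).

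Map2k6 encodes MKK6, the other p38 activator. Its level was 3.56, 3.60, 8.24 and 3.36 CPM in allogeneic, 4.30, 2.69, 10.2 and 8.79 CPM in syngeneic and 6.07, 8.04, 10.2 and 7.73 CPM in control mice. The transplanted groups were spread widely, with an SD of 50.5% of the mean in allogeneic, 55.1% in syngeneic and 21.4% in control mice, and all groups overlapped. No comparison was called. The 95% interval of the log2 difference was -1.33 to 0.39 for allogeneic against syngeneic, -1.16 to 0.55 for syngeneic against control and -1.64 to 0.090 for allogeneic against control. Without allogeneic mouse 3, which was far above the other allogeneic mice, allogeneic against control mice gave -1.19 (edgeR adjusted p = 0.0235). With all libraries kept, that comparison was called lower in 4 of 10 alternative settings, among them library totals (-1.16, adjusted p = 0.0214) and the GC and length offset (-1.03, 0.0447).

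Mapk14 encodes p38 alpha, the main p38 kinase of macrophages. It had 73.1, 78.7, 67.0 and 72.5 CPM in allogeneic, 95.2, 77.8, 92.1 and 96.4 CPM in syngeneic and 117, 120, 113 and 145 CPM in control mice. Both transplanted groups lay below all control mice, and allogeneic mice overlapped syngeneic mice only through syngeneic mouse 2. The log2 fold change was -0.31 ± 0.10 for allogeneic against syngeneic (edgeR adjusted p = 0.0443), -0.45 ± 0.10 for syngeneic against control (0.00106) and -0.77 ± 0.10 for allogeneic against control (3.99e-06). The call between the transplanted groups was lost in 6 of 8 fits with a library left out, namely without syngeneic mouse 1 (0.110), 3 (0.0973) or 4 (0.0949) and without allogeneic mouse 1 (0.0800), 3 (0.122) or 4 (0.0805). With all libraries kept, this comparison was called in 4 of 10 alternative settings. The call was lost, among others, with RLE size factors (0.0538), with no filter on low counts (0.0566), in limma-voom (0.0670) and with the GC and length offset (0.0564). With that offset syngeneic against control was -0.078 (0.571) and not called, and allogeneic against control was -0.38 (0.00487) and called.

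**Figure D2:**
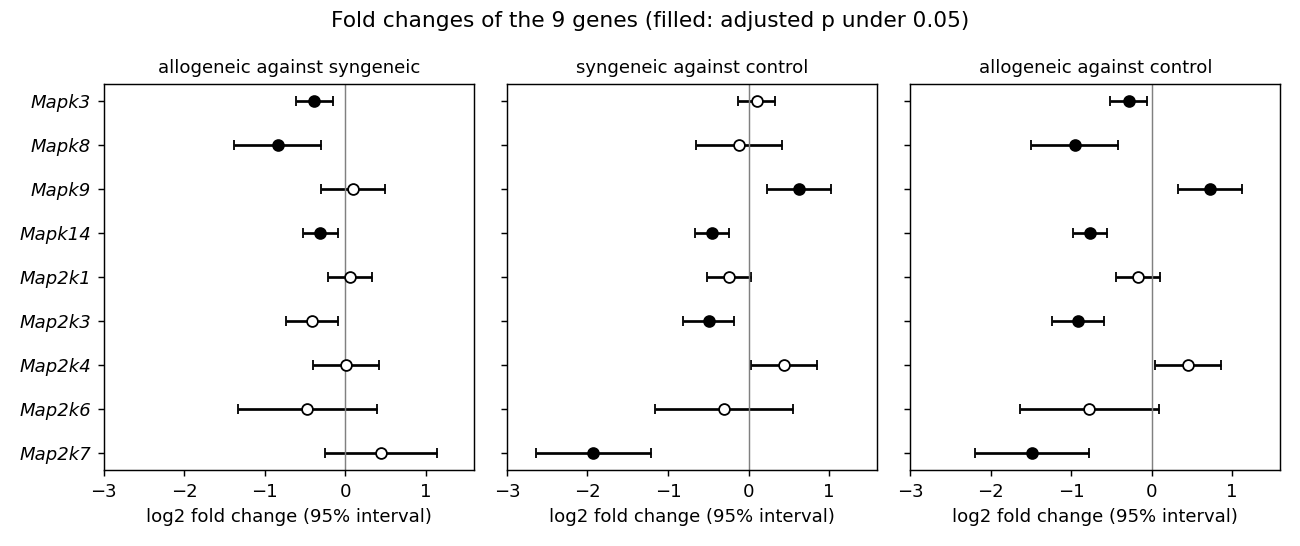
Log2 fold change of each gene in the 3 comparisons with its 95% interval; filled points have an adjusted p under 0.05. Map2k7 stands furthest to the left against control mice (-1.49 in allogeneic, -1.93 in syngeneic mice) and Mapk9 furthest to the right (0.72 and 0.63), while the intervals of Map2k1 include 0 in all 3 panels.

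The GC and length offset, which removes from each library its own trend of counts with these properties, moved the comparisons with control mice more than the comparison of transplanted mice. The GC content of the longest transcript was 57.6% for Mapk3, 56.0% for Map2k7, 54.4% for Map2k3, 52.5% for Mapk14 and 51.2% for Map2k1, and it was 47.1% for Map2k6, 45.7% for Mapk9, 45.0% for Map2k4 and 40.1% for Mapk8. In syngeneic against control mice, the offset raised the log2 fold change of each of the 5 genes above 50% GC and lowered that of each of the 4 genes below it. The part of GC content in these results was not tested.

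**Figure D3:**
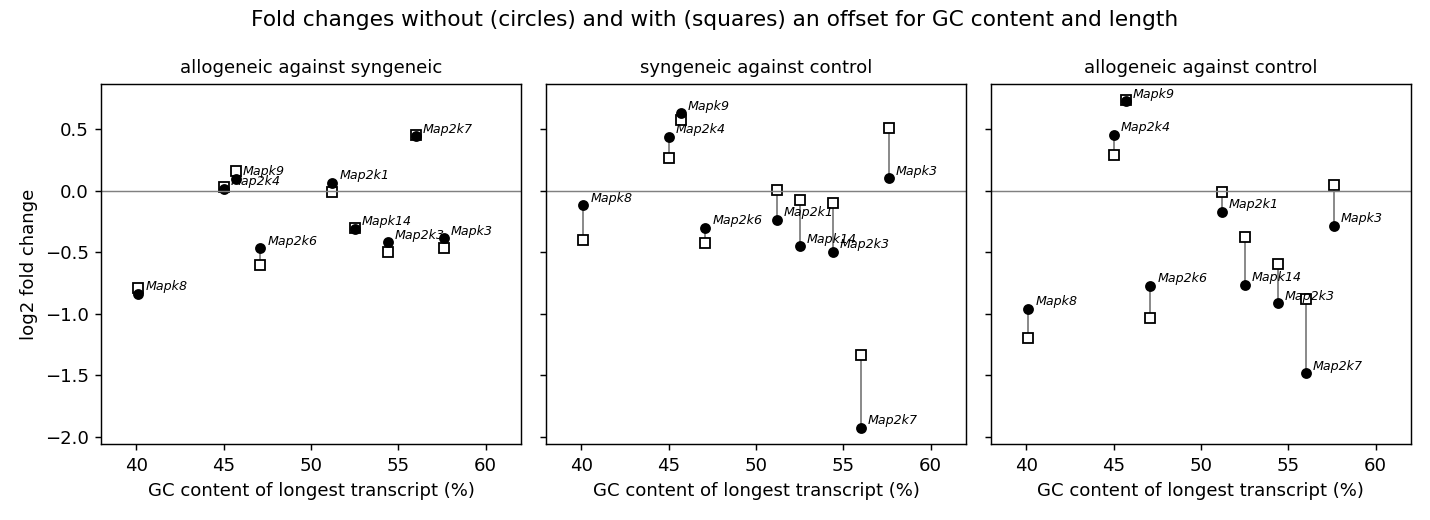
Log2 fold change of each gene without (circles) and with (squares) the offset for GC content and length, against the GC content of its longest transcript (%). In both panels against control mice the squares lie above the circles for the GC-rich genes, such as Mapk14 at -0.078 with and -0.45 without the offset in syngeneic mice, and in the left panel circles and squares lie closer together.

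Ratios between genes within a library do not depend on how libraries are scaled, and they are given as values without a test. They were taken without the GC and length offset. Where 2 genes differ in these properties, the ratio can still carry each library's own trend with them. The log2 ratio of the JNK activators, Map2k4 over Map2k7, was 1.79 ± 0.71 in allogeneic, 2.22 ± 0.72 in syngeneic and -0.23 ± 0.32 in control mice (n = 4 each). In CPM, Map2k4 stood at 2.47 to 7.02 times Map2k7 in allogeneic and 2.68 to 8.10 times in syngeneic mice, and at 0.621 to 1.02 times in control mice. The transplanted mice and the controls did not overlap.

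For the JNK genes, the log2 ratio of Mapk8 over Mapk9 was -2.90, -2.20, -2.31 and -2.82 in allogeneic, -2.35, -1.23, -1.97 and -1.16 in syngeneic and -0.58, -0.89, -1.17 and -0.86 in control mice. The ratio was lowest in allogeneic and highest in control mice by group mean, allogeneic and control mice did not overlap, and the syngeneic mice with the most Mapk8 were near the control range. In the p38 arm, Map2k3 over Map2k6 had the same mean log2 ratio within its spread in all groups, at 2.60 ± 0.84 in allogeneic, 2.64 ± 0.81 in syngeneic and 2.65 ± 0.18 in control mice. Across arms, Mapk14 over Mapk3 was -0.40 ± 0.19 in allogeneic, -0.48 ± 0.15 in syngeneic and 0.08 ± 0.25 in control mice. Within the ERK arm, Map2k1 over Mapk3 was -0.81 ± 0.21, -1.25 ± 0.09 and -0.91 ± 0.33 in allogeneic, syngeneic and control mice.

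**Figure D4:**
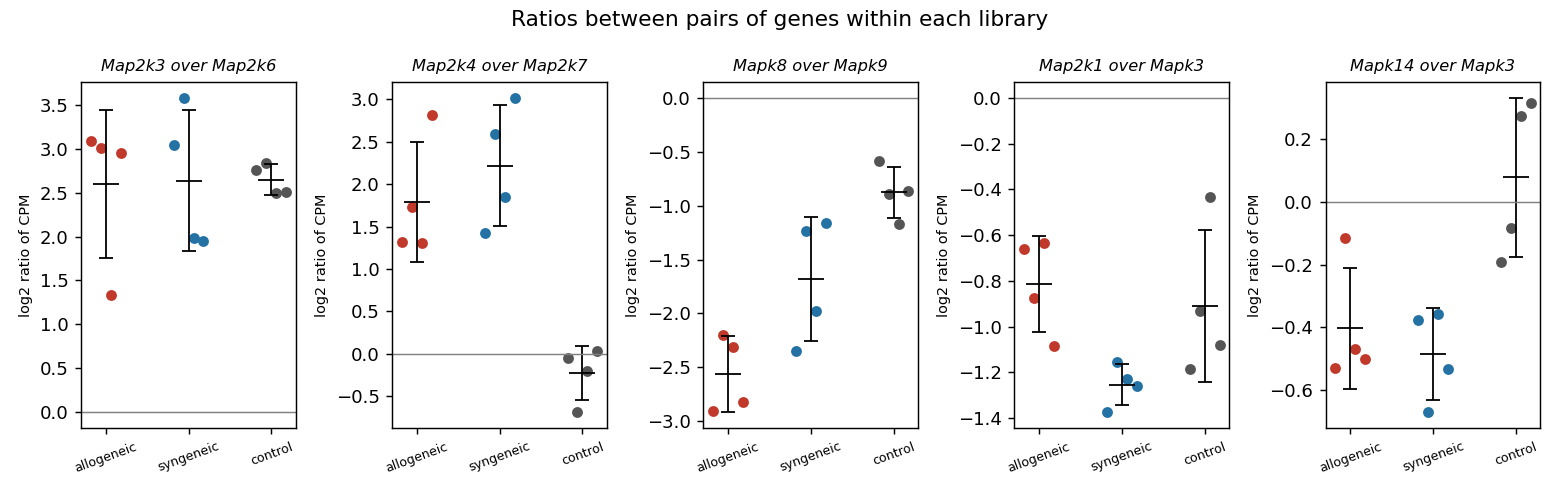
Log2 ratio of the CPM of 2 genes in each library, without the GC and length offset, with mean and SD of each group. The horizontal line at 0 marks equal CPM, and the axes differ between panels. Map2k4 over Map2k7 separates both transplanted groups from control mice, and Mapk8 over Mapk9 runs from a mean of -2.56 in allogeneic over -1.68 in syngeneic to -0.88 in control mice.

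To compare levels between genes, CPM was divided by the length of the longest transcript in kilobases. By this measure Mapk3 was the most abundant of the 9 genes in every group. It was at 53.6 ± 5.2 CPM per kb in allogeneic, 70.1 ± 5.2 in syngeneic and 65.4 ± 9.7 in control mice. Before this division, Mapk14 averaged 124 CPM and Mapk3 118 CPM in control mice, so the order there rests on the lengths used. Which transcripts of each gene were expressed is not known. Mapk14, Map2k1 and Map2k3 followed, with 20.3 ± 1.3, 22.7 ± 4.0 and 12.1 ± 1.9 CPM per kb in allogeneic mice and 34.5 ± 4.1, 25.6 ± 2.7 and 22.8 ± 4.0 in control mice. In allogeneic mice the levels of Mapk14 and Map2k1 overlapped, and in control mice those of Map2k1 and Map2k3 did.

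The other 5 genes were at 10.1 CPM per kb or less in every library. In control mice Map2k7 led them at 5.73 ± 1.05 CPM per kb, before Map2k4 at 4.66 ± 0.81, Mapk9 at 4.62 ± 0.93, Map2k6 at 3.84 ± 0.82 and Mapk8 at 2.03 ± 0.27, and neighbours in this order overlapped except Map2k6 and Mapk8. In allogeneic mice the order was Mapk9 at 7.64 ± 1.77, Map2k4 at 6.38 ± 1.39, Map2k6 at 2.25 ± 1.13, Map2k7 at 2.05 ± 0.92 and Mapk8 at 1.04 ± 0.14 CPM per kb. In syngeneic mice Mapk9 had 7.14 ± 1.20, Map2k4 6.32 ± 1.17, Map2k6 3.12 ± 1.72, Mapk8 1.86 ± 0.61 and Map2k7 1.51 ± 0.58 CPM per kb. In both transplanted groups neighbours in these orders overlapped, except Map2k4 and Map2k6. Map2k7 was thus first of these 5 by mean in control mice and last or next to last in the transplanted groups.

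For each of the 6 genes called in a comparison, the genes with the most similar course were those whose log2 CPM, centred over the 12 libraries, had the smallest root mean square (RMS) difference from it, among 6206 genes whose log2 CPM averaged 4 or more. The smallest RMS difference for the 6 was 0.104, between Mapk14 and Brd3, a reader of acetylated histones. Pitpnc1 (0.125) and Prex1 (0.127) came next for Mapk14. Brd3 itself averaged 49.7 CPM in allogeneic, 63.4 in syngeneic and 78.2 in control mice. Mapk3 was followed by Sun2 (0.121), Kcnj2 (0.129) and Mob3a (0.130), and Map2k3 by Abcf1 (0.143), Dnajc18 (0.150) and Celf1 (0.163).
Mapk9 was followed by Usp45 (0.155) and Tmtc3 (0.157), and Mapk8 by Add3 (0.226), Jam2 (0.227) and Plxna4 (0.231). For Map2k7 the nearest were Uimc1 (0.432), Traf5 (0.446) and Mettl17 (0.455). Its RMS differences were the largest, and so was its range, at 3.17 log2 units against 0.71 for Mapk3. An RMS difference grows with the range of a gene, so it does not rank how closely different members were matched. These likenesses describe 12 libraries that share depth and group structure.

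Other genes of the cascades were taken from lists of 105 genes, of which 103 were in the table. The lists too were chosen with earlier results of these data known. Counts and medians of each list below are to be read beside those of all genes tested. In allogeneic against syngeneic mice these were 10.1% higher and 6.38% lower, with a median log2 fold change of -0.015. They were 26.4% and 25.6% with -0.028 in syngeneic against control mice, and 28.2% and 29.1% with -0.069 in allogeneic against control mice. No list was tested as a set. Among upstream MAP3 kinases, 1 of 21 tested genes was called higher and 2 lower in allogeneic against syngeneic mice, with a median log2 fold change of -0.17. In syngeneic against control mice 4 were higher and 7 lower (median -0.51), and in allogeneic against control mice 2 were higher and 8 lower (median -0.55). Map3k8, the kinase TPL2 that links Toll-like receptors to MEK1, was the higher one, at 17.4 ± 7.0 CPM in allogeneic, 8.09 ± 2.78 in syngeneic and 15.2 ± 1.1 in control mice. Its log2 fold change was 1.10 ± 0.29 for allogeneic against syngeneic (edgeR adjusted p = 0.0133) and -0.91 ± 0.29 for syngeneic against control (0.0146), and 0.20 ± 0.29 for allogeneic against control, which was not called. The first call was lost without syngeneic mouse 4 (0.0518) or allogeneic mouse 3 (0.0605). Map3k13, which encodes a kinase upstream of JNK also named LZK, had 0 reads in all allogeneic libraries, against 94 in syngeneic and 93 in control libraries. Its level was 0.525 ± 0.459 CPM in syngeneic and 0.488 ± 0.649 CPM in control mice. With 3 reads over the group as a floor for allogeneic mice, the observed group mean was 24.2-fold lower than in syngeneic and 22.5-fold lower than in control mice. These values take the mean of the other group as exact. They leave out the spread between mice, so they are not lower limits, and they do not hold for each mouse. Allogeneic and control mice overlapped, so not every control mouse had reads of Map3k13. Its call against syngeneic mice was lost in 3 of 8 alternative settings (adjusted p up to 0.0776) and in 6 of 8 fits with a library left out (up to 0.0637). Its call against control mice was lost in limma-voom (0.0743).

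Among the other MAP kinases, 0 of 8 tested genes were called between allogeneic and syngeneic mice by edgeR, 1 had an unadjusted p under 0.05, and DESeq2 and limma-voom also called 0. Against control mice, 3 were higher and 2 lower in syngeneic mice and 5 higher and 2 lower in allogeneic mice, with medians of 0.46 and 0.45. Over all genes tested, 26.4% were higher and 25.6% lower in syngeneic mice, and 28.2% and 29.1% in allogeneic mice. Nlk, a kinase related to the MAP kinases, was the gene with that unadjusted p, at 36.8 ± 2.1 CPM in allogeneic, 46.2 ± 4.9 in syngeneic and 32.5 ± 5.8 in control mice, and it rose in syngeneic against control mice (0.51 ± 0.14, edgeR adjusted p = 0.00465), a call lost with library totals (0.34, 0.0550). Mapk6, which encodes ERK3, rose in allogeneic against control mice (0.53 ± 0.18, adjusted p = 0.0172), at 34.0 ± 7.6 CPM in allogeneic, 29.3 ± 4.0 in syngeneic and 23.5 ± 4.4 in control mice. This call was lost with library totals (0.16, adjusted p = 0.483) and without control mouse 1 (0.0646) or allogeneic mouse 4 (0.0820). Mapk10, which encodes the largely neuronal JNK3, stayed at 0.937 ± 0.873 CPM in allogeneic, 0.285 ± 0.397 in syngeneic and 0.0692 ± 0.0808 in control mice; its call in allogeneic against control mice (3.72 ± 1.53, adjusted p = 0.0453) was lost in 6 of 8 alternative settings (adjusted p up to 0.126) and in 6 of 8 fits with a library left out (up to 0.134). Neuronal markers (8 of 8) summed to 7.22 to 11.3 CPM in allogeneic, 7.12 to 14.0 in syngeneic and 1.62 to 3.07 in control libraries. The part of neuronal RNA was not tested. Of the other MAP kinase kinases, 0 of 2 were called in any comparison by edgeR, DESeq2 or limma-voom and 0 had an unadjusted p under 0.05. Map2k5, the activator of ERK5, had 13.5 ± 4.4 CPM in allogeneic, 15.5 ± 3.0 in syngeneic and 14.5 ± 1.0 in control mice.

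Of the kinases that MAP kinases activate, 0 of 10 were called higher and 1 lower in allogeneic against syngeneic mice (median -0.12), with 1 higher at an unadjusted p under 0.05 in edgeR and 0 called higher by DESeq2 or limma-voom. Mknk1, a kinase that ERK and p38 activate and that phosphorylates the translation factor eIF4E, had 120 ± 8 CPM in allogeneic, 183 ± 8 in syngeneic and 252 ± 35 in control mice. It fell in allogeneic against syngeneic (-0.61 ± 0.09, edgeR adjusted p = 9.51e-05), syngeneic against control (-0.46 ± 0.09, 0.000365) and allogeneic against control mice (-1.07 ± 0.09, 1.51e-08), the second of which was lost with the GC and length offset (-0.085, 0.400). Mapkapk2, the p38 target MK2, had 56.6 ± 9.4 CPM in allogeneic, 44.8 ± 3.2 in syngeneic and 25.1 ± 4.5 in control mice, and rose against control mice in both transplanted groups (1.17 ± 0.15 in allogeneic, edgeR adjusted p = 1.92e-06; 0.84 ± 0.15 in syngeneic, 0.000108). It did not pass the test between the transplanted groups (0.34 ± 0.15, 0.133), whose mice did not overlap. Rps6ka5, which encodes the chromatin kinase MSK1, was called in none of the comparisons, at 8.07 ± 2.28, 11.98 ± 3.09 and 7.81 ± 2.79 CPM in allogeneic, syngeneic and control mice. Against control mice, 2 genes of this list were higher and 3 lower in each transplanted group, with medians of -0.19 in allogeneic and -0.23 in syngeneic mice. These counts stand beside 28.2% higher and 29.1% lower of all genes tested in allogeneic mice, and 26.4% and 25.6% in syngeneic mice.

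Of 7 tested scaffold proteins, 1 was called lower in allogeneic against syngeneic mice (median -0.33). Against control mice 3 were higher and 2 lower in each transplanted group, with medians of -0.98 in allogeneic and -0.048 in syngeneic mice. Both of these medians against control mice are the values of Ksr1, a gene at a low level that was not called. No scaffold was called higher between the transplanted groups by edgeR, DESeq2 or limma-voom, and 0 had an unadjusted p under 0.05 on that side. Mapk8ip3, the scaffold JIP3 that binds JNK and kinesin, had 19.9 ± 4.3 CPM in allogeneic, 35.9 ± 4.8 in syngeneic and 62.04 ± 8.81 in control mice and fell in each comparison. Its log2 fold changes were -0.85 ± 0.16 for allogeneic against syngeneic (edgeR adjusted p = 0.000909), -0.79 ± 0.16 for syngeneic against control (0.000450) and -1.64 ± 0.17 for allogeneic against control (1.03e-07), and the second was lost with the GC and length offset (-0.24, 0.233). Spag9, the related JIP4, rose against control mice in allogeneic (0.39 ± 0.11, edgeR adjusted p = 0.00646) and syngeneic mice (0.61 ± 0.11, 0.000192), at 55.4 ± 5.9, 64.3 ± 1.5 and 42.1 ± 4.9 CPM in allogeneic, syngeneic and control mice; the rise in allogeneic mice was lost with the offset (0.0851) and with library totals (0.885). Ksr1, a scaffold of the ERK arm, had 0.885 ± 0.724 CPM in allogeneic, 1.69 ± 0.69 in syngeneic and 1.75 ± 0.77 in control mice and was not called.

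Among 8 tested phosphatases that act on MAP kinases, 1 was lower and 0 were higher in allogeneic against syngeneic mice (median -0.21), with 0 higher at an unadjusted p under 0.05 in edgeR, 0 in DESeq2 and 1 in limma-voom. Each transplanted group had 1 higher and 1 lower against control mice, with medians of -0.0041 in allogeneic and 0.30 in syngeneic mice. Dusp7, which dephosphorylates ERK, was the lower one, at 43.5 ± 5.2 CPM in allogeneic, 62.4 ± 8.5 in syngeneic and 51.5 ± 6.4 in control mice (-0.52 ± 0.13, edgeR adjusted p = 0.00835). Ptpn7, the haematopoietic tyrosine phosphatase of ERK and p38, had 427 reads in allogeneic and 143 in syngeneic libraries and 0 in control libraries. With a floor of 3 reads over the control group, the observed group mean was 173.6-fold higher in allogeneic and 47.9-fold higher in syngeneic than in control mice. These values leave out the spread between the transplanted mice, so they are not lower limits, and they do not hold for each mouse. Syngeneic and control mice overlapped, so not every syngeneic mouse had reads of Ptpn7. Its levels were 3.11 ± 1.5 CPM in allogeneic and 0.856 ± 0.798 CPM in syngeneic mice, a difference that edgeR did not call (adjusted p = 0.293) and limma-voom did (0.0351). Dusp16, which acts on JNK, had 15.8 ± 4.2, 21.6 ± 4.5 and 17.2 ± 5.9 CPM in allogeneic, syngeneic and control mice and was not called.

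Of 6 tested feedback inhibitors of the ERK arm, 1 was lower and 0 were higher in allogeneic against syngeneic mice (median -0.41), with 0 higher by an unadjusted p under 0.05 in edgeR, by DESeq2 or by limma-voom. Spred1, which restrains the step from Ras to Raf, had 89.1 ± 9.5 CPM in allogeneic, 131 ± 14 in syngeneic and 58.1 ± 5.1 in control mice, and the 3 groups did not overlap. It fell in allogeneic against syngeneic mice (-0.55 ± 0.11, edgeR adjusted p = 0.000908) and rose against control mice in syngeneic (1.17 ± 0.11, 4.31e-08) and allogeneic mice (0.62 ± 0.11, 6.57e-05), the last of which was lost with library totals (0.25, 0.0647). Against control mice 2 of the 6 were higher in each transplanted group and 0 lower in edgeR; in allogeneic mice 1 was lower at an unadjusted p under 0.05 and 1 was called lower by DESeq2 and by limma-voom, and in syngeneic mice all these counts were 0. The one at issue was Spry1, at 1.79 ± 1.65 CPM in allogeneic, 4.76 ± 1.93 in syngeneic and 5.03 ± 1.73 in control mice (-1.49 ± 0.63 for allogeneic against control, adjusted p = 0.0521); it was called lower in 7 of 10 alternative settings (adjusted p 0.00638 to 0.225 over all 10). Spry4 was at 0.493 ± 0.545, 2.64 ± 1.003 and 0.865 ± 0.990 CPM in allogeneic, syngeneic and control mice and was not called. The medians against control mice were -0.091 in allogeneic and 0.68 in syngeneic mice.

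Of 14 tested transcription factors that MAP kinases phosphorylate, 1 was higher and 3 were lower in allogeneic against syngeneic mice (median -0.20), 4 higher and 3 lower in syngeneic against control mice (median 0.17), and 1 higher and 5 lower in allogeneic against control mice (median -0.030). The 3 lower ones were the MEF2 factors, which are known as substrates of p38. Mef2c, a factor of microglial identity, had 441 ± 42 CPM in allogeneic, 728 ± 73 in syngeneic and 719 ± 37 in control mice, and fell in allogeneic against syngeneic (-0.72 ± 0.08, edgeR adjusted p = 1.97e-06) and against control mice (-0.71 ± 0.08, 4.74e-07). Mef2a had 277 ± 7 CPM in allogeneic, 345 ± 33 in syngeneic and 300.2 ± 26.6 in control mice (-0.32 ± 0.08 for allogeneic against syngeneic, adjusted p = 0.00855). Mef2d had 3.25 ± 1.02 CPM in allogeneic, 6.05 ± 0.91 in syngeneic and 11.8 ± 1.2 in control mice (-0.90 ± 0.29 for allogeneic against syngeneic, adjusted p = 0.0375), and this call was lost in 6 of 10 alternative settings (adjusted p up to 0.0983) and in 5 of 8 fits with a library left out (up to 0.104).

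Of 12 tested early response genes, which MAP kinase signalling induces within a short time, 1 was higher and 1 lower in allogeneic against syngeneic mice (median 0.16). Rhob, a small GTPase, had 150 ± 21 CPM in allogeneic, 221 ± 19 in syngeneic and 307 ± 35 in control mice and fell in each comparison, at -0.57 ± 0.10 for allogeneic against syngeneic (edgeR adjusted p = 0.000598), -0.47 ± 0.10 for syngeneic against control (0.000780) and -1.04 ± 0.10 for allogeneic against control (9.51e-08). With the GC and length offset its difference between syngeneic and control mice was 0.047 (adjusted p = 0.738). Klf6, a zinc finger factor, had 207 ± 5 CPM in allogeneic, 170 ± 14 in syngeneic and 174 ± 13 in control mice (0.29 ± 0.08 for allogeneic against syngeneic, adjusted p = 0.0144), a call that was lost with library totals (0.460) and without syngeneic mouse 3 (0.0571) or 4 (0.0648). Btg2, an antiproliferative gene, had 70.1 ± 9.9 CPM in allogeneic, 86.9 ± 4.0 in syngeneic and 318 ± 42 in control mice, and fell in both transplanted groups against control mice (-2.18 ± 0.11 in allogeneic, edgeR adjusted p = 7.54e-12; -1.87 ± 0.11 in syngeneic, 1.56e-10). Against control mice the list had 3 higher and 3 lower in allogeneic mice (median 0.15) and 2 higher and 3 lower in syngeneic mice (median -0.33). The shares of all genes tested were 28.2% higher and 29.1% lower in allogeneic mice, and 26.4% and 25.6% in syngeneic mice.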

How the data were processed

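The authors deposited 1 table of raw read counts per gene symbol for 12 libraries, which holds whole numbers. Trimming used Trimmomatic 0.36 and alignment to mm9 used STAR 2.5.2b, per the submitters' processing notes; the sources used here do not give the counting tool, annotation, strand setting or handling of shared reads. Per the labels' protocols, RNA was isolated with the Picopure kit and used only at an integrity value of at least 8. CPM and fold changes were computed from the deposited counts by edgeR 4.0.16 under R 4.3.3, with TMM scaling. The filterByExpr filter (minimum count 10) left 12695 of the 18018 genes that had reads, including all 9 members, for 1 robust quasi-likelihood fit of 12 libraries with group means. The method was tested on simulated data. Within groups, libraries had Spearman correlations of 0.975 to 0.984 and differed beyond counting noise, so each counted as 1 replicate. The p-values set the difference between groups against the spread between mice, estimated over the 3 groups together. Intervals of fold changes are at the 95% level. Alternatives were RLE factors, library totals, no filter, 1 CPM in 4 libraries, DESeq2 1.42.0, limma-voom (limma 3.58.1), only the groups compared, leaving out each library, a block for replicate number, and an offset fitted to GC content and length by loess (span 0.3, on the 12615 tested genes with both values). Lengths, GC content and transcript sequences come from GENCODE M21 on GRCm38, another build than mm9, so no gene coordinates are given.

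The members and lists were chosen with earlier results of these data known, and some alternatives too. Named were the 9 members, up to 3 genes of each list with the smallest p in allogeneic against syngeneic mice, and the 3 genes nearest to each called member, passing over predicted genes. Of the genes this rule gives, 3 are not reported here, nor are the values of 2 marker genes; counts and sums of lists include them. Marker lists not described in the report were neutrophils (at most 7.21 CPM in sum in allogeneic, 8.31 in syngeneic and 26.1 in control libraries), astrocytes (382 to 482, 307 to 365 and 272 to 345 CPM), oligodendrocytes (128 to 145, 114 to 176 and 145 to 152 CPM) and endothelial cells (15.4 to 28.9, 14.8 to 24.5 and 19.9 to 29.7 CPM in allogeneic, syngeneic and control libraries). Such sums follow mostly the most abundant genes of a list. Against control mice, 4 of 7 astrocyte markers were higher and 0 lower in each transplanted group. Their median log2 fold change was 2.45 in allogeneic and 2.77 in syngeneic mice.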

Additional observations from a re-analysis of the deposited data

Results flagged for a closer look

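In 2 of 27 sets of 4 libraries (9 genes in 3 groups), 1 library lay far from the other 3 by Dixon's test, which chance alone flags in about 1 in 20 groups. Map2k6 was at 8.24 CPM in allogeneic mouse 3, and the other allogeneic mice lay between 3.36 and 3.60 CPM; without that mouse, allogeneic against control mice gave a log2 fold change of -1.19 (edgeR adjusted p = 0.0235), and with it -0.77 (0.117). Mapk9 was at 15.1 CPM in control mouse 1, and the other control mice lay between 23.5 and 24.2 CPM; without that mouse, Mapk9 stayed called against control mice in allogeneic (0.58, adjusted p = 0.0131) and syngeneic mice (0.49, 0.0372).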

How the results depend on the processing

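Of 486 values of the members' log2 fold changes under the alternatives, 412 kept direction and call, 35 lost the call, 18 gained one and 21 changed sign. In allogeneic against syngeneic mice, the 3 members called lower became 1 in limma-voom and 1 with the replicate block together with the GC and length offset. In syngeneic against control mice, the 1 called higher became 0 with library totals and 2 with DESeq2, with the offset and with the block and offset, and the 3 called lower became 1 with the offset and 1 with the block and offset. In allogeneic against control mice, the 1 called higher became 0 with library totals and 2 with RLE factors and with DESeq2. With each library left out, members called lower numbered 0 to 2 in allogeneic against syngeneic (0 without syngeneic mouse 4 or allogeneic mouse 3), 3 to 3 in syngeneic against control and 4 to 5 in allogeneic against control mice; members called higher numbered 0 to 0, 1 to 2 and 1 to 2. Library totals shifted the median of all genes' log2 fold changes to -0.22 in allogeneic against syngeneic, -0.20 in syngeneic against control and -0.44 in allogeneic against control mice. Of 540 counts of list genes with all libraries kept, 86 moved by over 1.5 times.

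In allogeneic against syngeneic mice the values that changed sign were Mapk9 (-0.10), Map2k1 (-0.14) and Map2k4 (-0.19) with library totals, Map2k1 with the offset (-0.016) and the block and offset (-0.026), and Map2k4 with only the compared groups (-0.0018) and with the replicate block (-0.00048). For syngeneic against control mice they were Mapk3 (-0.067), Map2k5 (-0.067), Map3k13 (-0.068) and Mef2c (-0.15) with library totals, and with the offset Map2k1 (0.0041), Ksr1 (0.58), Spry1 (0.53), Mef2c (-0.29), Mef2a (-0.053) and Rhob (0.047), which with the block and offset were 0.0094, 0.62, 0.49, -0.30, -0.055 and 0.047. For allogeneic against control mice they were Nlk (-0.20), Map3k8 (-0.18), Rps6ka5 (-0.33) and Klf6 (-0.12) with library totals, Spry4 in limma-voom (0.40), and with the offset Mapk3 (0.042), Map2k5 (0.22), Map3k8 (-0.039), Rps6ka5 (-0.12), Dusp7 (0.47) and Dusp16 (0.025), which with the block and offset were 0.041, 0.20, -0.13, -0.11, 0.47 and 0.040. With a library left out, allogeneic against syngeneic values ranged over -0.066 to 0.20 for Mapk9, -0.041 to 0.14 for Map2k1 and -0.095 to 0.13 for Map2k4. Syngeneic against control values ranged over -0.32 to 0.0052 for Mapk8, -0.33 to 0.22 for Ksr1, -0.031 to 0.19 for Map2k5, -0.40 to 1.58 for Map3k13, -0.047 to 0.054 for Mef2c and -0.32 to 0.089 for Spry1. Allogeneic against control values ranged over -0.29 to 0.088 for Dusp16, -0.35 to 0.029 for Map2k5, -0.0062 to 0.44 for Map3k8, -0.13 to 0.28 for Rps6ka5 and -1.90 to 0.26 for Spry4. The causes were not tested.

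Replicate numbers are not said to pair the mice, and deviations of libraries with the same number correlated at -0.015 to 0.032. Each library was set against each other group, and in 5 of these 24 cases the closest library had the same number. With the replicate block, 2 members were lower between the transplanted groups, since Mapk14 was not called (adjusted p = 0.0563), and 6 were lower in allogeneic against control mice, with Map2k6 added (-0.86, 0.0469). The members with the fewest reads were Map2k7, Map2k6 and Mapk8, with at least 104, 113 and 154 reads in every library.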
